A study of Arabidopsis thaliana with 6 samples.

Results

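Expansins and xyloglucan endotransglucosylases/hydrolases (XTHs) were followed in Arabidopsis thaliana seedlings exposed to a bacterial fatty acid. The members were the 53 loci named in a list of EXPA, EXPB, EXLA, EXLB and XTH genes, found by their locus codes among the 28259 loci measured. Of these, 25 were expansins or expansin-like genes and 28 were XTHs, and all 53 codes carried the same family name in the RefSeq annotation TAIR10.1. A total of 50 members passed the filter on low counts and could be tested.

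The primary cell wall of a flowering plant is a mesh of cellulose microfibrils with xyloglucan bound along and between them. Expansins loosen that mesh without cutting it and act best at low pH, so plasma membrane proton pumps are counted among their partners. XTHs cut xyloglucan chains and either rejoin the cut end to another chain or release it, and both families are known for their part in cell expansion.

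RNA-seq was performed on whole Columbia (Col-0) seedlings that were 10 days old and had been raised in short days of 10 h light and 14 h dark. After a night in water under light, the treated seedlings received 3-hydroxydecanoic acid (3-OH-C10:0), a medium-chain 3-hydroxy fatty acid that Arabidopsis senses through the receptor kinase LORE, and the control seedlings received the solvent dimethyl sulfoxide (DMSO). Both were collected 8 h later, with 3 libraries in each group. On the dose the labels differ, with 5 microM in the characteristics of the samples but 5 mM in the treatment text; the true one is not known here.

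Estimated counts summed to between 18064723 and 27131500 in the treated libraries and to between 19390988 and 21000782 in the DMSO libraries. The groups stood far apart. Of 19768 genes tested, 14120 (71.4%) changed, so a change by itself sets a gene apart little. Leaf and root markers were both detected, which suits the label of whole seedlings. Whether the libraries derive from independent batches of seedlings is not stated in the labels, and the p-values speak only of the spread among these 6 libraries, which may be technical. In whole seedlings, fewer cells of a type and less RNA per cell cannot be told apart.

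DMSO replicate 1 stood apart for many members. It was the highest DMSO library in 31 of the 50 tested members (62.0%) and in 37.1% of all tested genes. Among genes that fell, it was the highest in 69.4% of the members and in 47.7% of all. It exceeded 1.5 times the mean of the other DMSO libraries in 12 tested members (24.0%) and in 4.59% of all tested genes. These were EXPA4, EXPA5, EXPA14, EXPA15, EXPB1, EXPB3, XTH7, XTH17, XTH19, XTH20, XTH21 and XTH31, and for these the value without it is given as well.

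Most of the tested members were lower in the treated seedlings, and a small set went the other way. At an adjusted p under 0.05 (edgeR quasi-likelihood test, Benjamini-Hochberg adjustment over all tested genes), 36 of the 50 tested members (72.0%) fell, where 35.8% of all tested genes fell. Only 6 members (12.0%) rose, where 35.6% of all tested genes rose. A fall of at least 2-fold was found in 26 members, against a background of 14.7%, and a rise of at least 2-fold in 5 members, against a background of 15.7%. The median log2 fold change over the 50 tested members was -1.04, beside -0.04 over all tested genes. On a scale of counts relative to library size (CPM), the treated and DMSO libraries did not overlap for 43 of the 50 tested members, against 75.9% of all tested genes. The members that rose were EXLB1, XTH10, XTH15, XTH18, XTH23 and XTH30, and they came from 4 different branches of the families. Without DMSO replicate 1 the counts were again 6 members that rose and 36 that fell, and all 12 members named for that library were among those that fell. EXPA5, EXPB1, XTH13, XTH19, XTH20 and XTH21 had at most 15 counts in any treated library. They could not have passed the filter without their DMSO libraries, so a fall in them was largely set by passing. With no filter, 36 of 53 members and 7091 of 23572 genes fell.

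**Figure D1:**
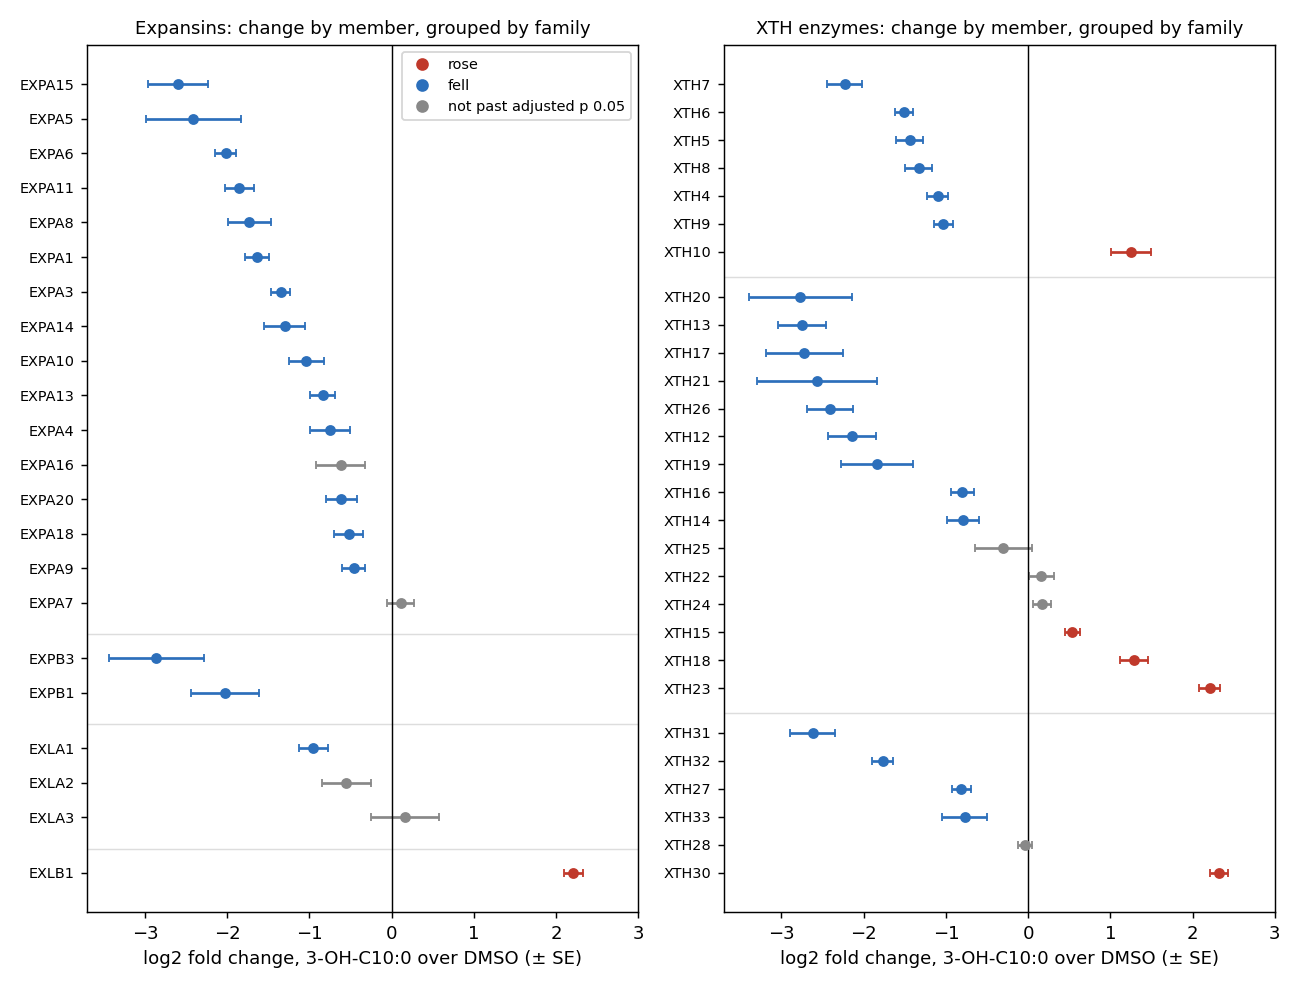
Log2 fold change of 3-OH-C10:0 over DMSO seedlings, with its standard error, for the 50 tested members, expansins in the left panel and XTHs in the right panel, with grey lines between families. Red points rose, blue points fell and grey points did not pass an adjusted p of 0.05. EXLB1 is the only red point among the expansins, whereas each of the 3 XTH groups has at least 1 red point.

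The summed level of the expansins was 174 ± 10.2 FPKM in treated seedlings and 326 ± 14.3 FPKM in DMSO seedlings (SD, n = 3 each). FPKM, fragments per kilobase scaled to library depth, is scaled to gene length, so levels of different genes can be set side by side on it. Without EXLB1 the expansin sum was 119 ± 11.3 FPKM in treated seedlings and 313 ± 16.2 FPKM in DMSO seedlings. The order of the expansins also changed. EXPA1 took 19.9% ± 1.24 of the expansin FPKM in treated seedlings and 35.4% ± 6.93 in DMSO seedlings. EXLB1 took 31.7% ± 3.13 in treated seedlings and 3.88% ± 0.748 in DMSO seedlings. EXLB1 ranked 1 among the expansins in every treated library, and 10, 8 and 8 in the DMSO libraries.

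The XTHs were far more abundant. Together they reached 1584 ± 26.7 FPKM in treated seedlings and 1963 ± 131 FPKM in DMSO seedlings (SD, n = 3 each). XTH24 alone made up 52.4% ± 3.63 of that sum in treated seedlings and 40% ± 1.60 in DMSO seedlings. Leaving it out, the sum was 755 ± 66.7 FPKM in treated seedlings and 1180 ± 110 FPKM in DMSO seedlings. The 19 XTHs that fell summed to between 361 and 413 FPKM in the treated libraries and to between 883 and 1050 FPKM in the DMSO libraries. The 5 XTHs that rose summed to between 208 and 252 FPKM in the treated libraries and to between 80.8 and 89.7 FPKM in the DMSO libraries. These sums were grouped by the direction of change and are descriptions only.

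**Figure D2:**
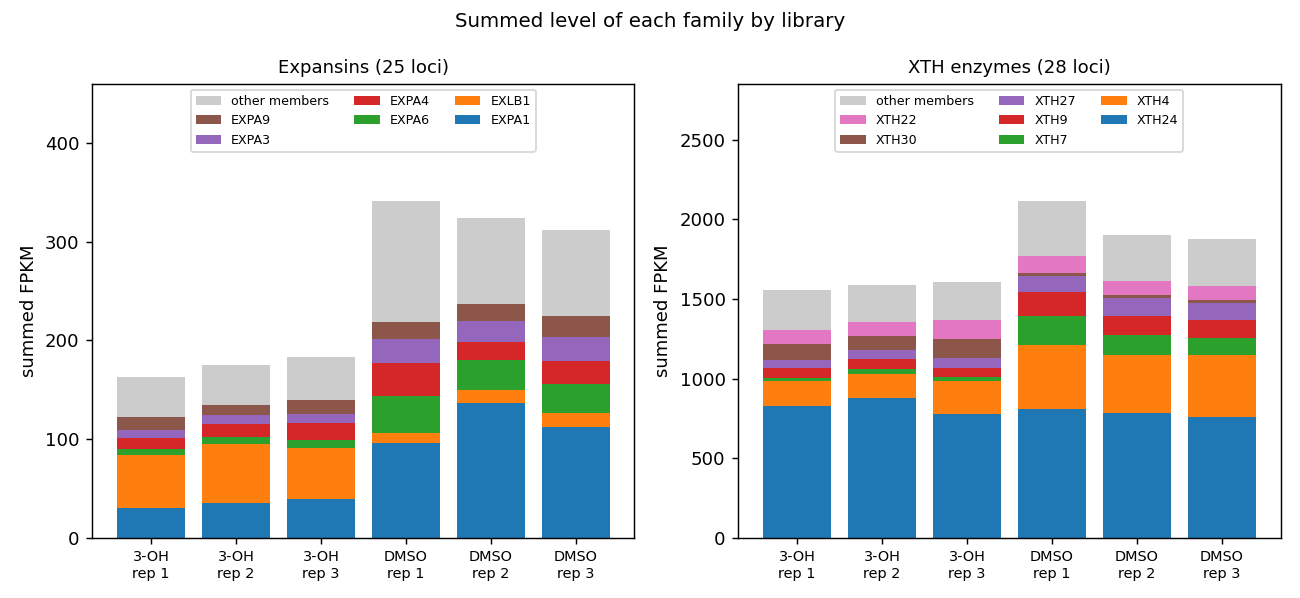
Summed FPKM of the 25 expansin loci (left panel) and the 28 XTH loci (right panel) in each library, the 3-OH-C10:0 libraries (3-OH) left of the DMSO libraries, with the most abundant members in colour and the rest in grey. The expansin sum lies between 163 and 184 FPKM in the treated libraries and between 312 and 341 FPKM in the DMSO libraries, and the XTH24 share of each XTH bar is the widest band in all 6 libraries.

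Among the alpha-expansins (EXPA), the main wall-loosening branch, 14 of 16 tested members (87.5%) fell and none rose. Of all tested genes, 35.8% fell and 35.6% rose. EXPA1 (AT1G69530, chr1:26141726-26143538, plus strand), which is known from guard cells and leaves, had 30.6, 34.8 and 38.9 FPKM in treated seedlings and 96.1, 136 and 112 FPKM in DMSO seedlings. Every treated library lay well under every DMSO library, and the log2 fold change was -1.64 ± 0.147 (SE, adjusted p = 7.5e-06). EXPA6, the runner-up in DMSO seedlings, had 6.30, 7.47 and 8.56 FPKM in treated seedlings and 37.1, 30.1 and 29.6 FPKM in DMSO seedlings, a log2 fold change of -2.02 ± 0.128 (adjusted p = 2.1e-07). EXPA3 had 7.39, 9.30 and 9.54 FPKM in treated seedlings and 24.8, 21.6 and 24.5 FPKM in DMSO seedlings, with a log2 fold change of -1.35 ± 0.111. These abundant alpha-expansins were low in all 3 treated libraries and tight within each group.

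EXPA11 had 3.23, 3.40 and 5.21 FPKM in treated seedlings against 15.2, 14.4 and 16.5 FPKM in DMSO seedlings (log2 fold change -1.85 ± 0.171). EXPA15 had 2.02, 1.3 and 1.33 FPKM in treated seedlings against 15.3, 7.19 and 7.50 FPKM in DMSO seedlings (log2 fold change -2.60 ± 0.362). EXPA5, linked to brassinosteroid-dependent growth, had 0.300, 0.300 and 0.430 FPKM in treated seedlings against 3.48, 1.85 and 0.710 FPKM in DMSO seedlings (log2 fold change -2.41 ± 0.583). Within the DMSO group EXPA15 and EXPA5 were both highest in replicate 1, yet no DMSO library fell to the treated range. Without that library the log2 fold change of EXPA15 was -2.17 and that of EXPA5 was -1.78. The falls of EXPA8, EXPA14 and EXPA10, the last of which affects leaf size when suppressed, lay between -1.73 and -1.04 on the log2 scale. EXPA14 had a log2 fold change of -1.3, and of -1.03 without DMSO replicate 1.

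EXPA4 and EXPA9 belong to the 5 most abundant expansins but changed less. EXPA4 had 11.4, 13.0 and 16.9 FPKM in treated seedlings and 33.3, 18.3 and 22.9 FPKM in DMSO seedlings, with a log2 fold change of -0.75 ± 0.239 (adjusted p = 0.0252), and of -0.50 without DMSO replicate 1. It no longer passed without treated replicate 1 (adjusted p = 0.0757) or treated replicate 2 (adjusted p = 0.0744). EXPA9 had 13.6, 10.2 and 13.8 FPKM in treated seedlings and 16.6, 17.5 and 21.0 FPKM in DMSO seedlings, the smallest called fall of the branch at -0.46 ± 0.137 on the log2 scale (adjusted p = 0.0118). The groups of both genes came close to each other without overlapping. EXPA13 and EXPA20 had log2 fold changes of -0.84 and -0.61, and EXPA20 no longer passed without treated replicate 1 (adjusted p = 0.0571).

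EXPA7 and EXPA18 are the alpha-expansins of root hairs. EXPA7 had 6.84, 4.93 and 6.24 FPKM in treated seedlings and 5.64, 6.64 and 5.44 FPKM in DMSO seedlings. Its groups overlapped throughout, and its log2 fold change of 0.11 ± 0.164 did not pass (adjusted p = 0.556). EXPA18 had 3.97, 3.09 and 3.09 FPKM in treated seedlings and 4.53, 5.61 and 5.23 FPKM in DMSO seedlings, a log2 fold change of -0.52 ± 0.176 (adjusted p = 0.0217). Its call was lost without treated replicate 2 (adjusted p = 0.0763), treated replicate 3 (adjusted p = 0.0692) or DMSO replicate 2 (adjusted p = 0.0769). EXPA16, the other tested alpha-expansin without a call, had 1.86, 0.850 and 1.17 FPKM in treated seedlings and 2.47, 2.07 and 1.83 FPKM in DMSO seedlings. Only the highest treated and the lowest DMSO library of EXPA16 crossed, and its log2 fold change was -0.62 ± 0.294 (adjusted p = 0.0801). With limma on log2(FPKM + 0.1) it did pass (adjusted p = 0.0377), and likewise without treated replicate 1 (adjusted p = 0.0165).

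EXPA2, EXPA12 and EXPA17 did not pass the filter. EXPA2, an expansin of germinating seeds, had 1 count over the treated libraries and 3 counts over the DMSO libraries. EXPA12 had 2 counts over the treated libraries and 6 counts over the DMSO libraries. EXPA17, known from emerging lateral roots, had 3, 6 and 1 counts in the treated libraries and 1, 1 and 0 counts in the DMSO libraries. A difference in these 3 genes was not detectable at this depth.

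Both beta-expansins (EXPB), genes of low level here, fell, where 35.8% of all tested genes fell. EXPB3 had 1.07, 1.5 and 0.940 FPKM in treated seedlings and 16.2, 4.77 and 5.90 FPKM in DMSO seedlings, the lowest log2 fold change of any tested member at -2.86 ± 0.577 (adjusted p = 0.0047). DMSO replicate 1 stood at about 3 times the mean of the other DMSO libraries, and without it the log2 fold change was -2.13. EXPB1 had 0.340, 0.440 and 0.450 FPKM in treated seedlings and 2.94, 1.09 and 1.43 FPKM in DMSO seedlings, a log2 fold change of -2.03 ± 0.415 (adjusted p = 0.0012), or -1.52 without that library. All treated values of both genes lay under all DMSO values.

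The expansin-like genes keep the expansin fold, but wall-loosening activity has not been established for them in Arabidopsis. Of the 3 EXLA genes only EXLA1 changed, and it fell (33.3%, where 35.8% of all tested genes fell). EXLA1 had 6.70, 8.51 and 10.9 FPKM in treated seedlings and 21.0, 16.3 and 16.6 FPKM in DMSO seedlings (log2 fold change -0.95 ± 0.172, adjusted p = 0.00069). EXLA2 had 1.15, 2.3 and 1.3 FPKM in treated seedlings and 2.94, 1.72 and 2.61 FPKM in DMSO seedlings. EXLA3 had 0.730, 0.280 and 0.690 FPKM in treated seedlings and 0.470, 0.6 and 0.560 FPKM in DMSO seedlings. The groups of EXLA2 and EXLA3 overlapped, with log2 fold changes of -0.55 ± 0.296 (adjusted p = 0.12) and 0.16 ± 0.413 (adjusted p = 0.735). EXLA1 and EXLA3 share an identical exonic stretch of 57 bases, so the 39 counts of EXLA3 over the treated libraries and 34 over the DMSO libraries are uncertain beside the 579 and 1083 of EXLA1. EXLA2 passed when treated replicate 2, its highest treated library, was left out (adjusted p = 0.0257).

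EXLB1 (AT4G17030, chr4:9581562-9583290, minus strand), the sole EXLB gene among the members, went against every other called expansin. It had 53.2, 60.1 and 51.8 FPKM in treated seedlings and 10.4, 13.3 and 14.0 FPKM in DMSO seedlings. The lowest treated library was more than 3 times the highest DMSO library, and the log2 fold change was 2.21 ± 0.117 (adjusted p = 5.1e-08). EXLB1 thus stood 4.62-fold higher in treated seedlings, whereas EXPA1, the leading expansin of DMSO seedlings, stood 3.12-fold lower there.

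**Figure D3:**
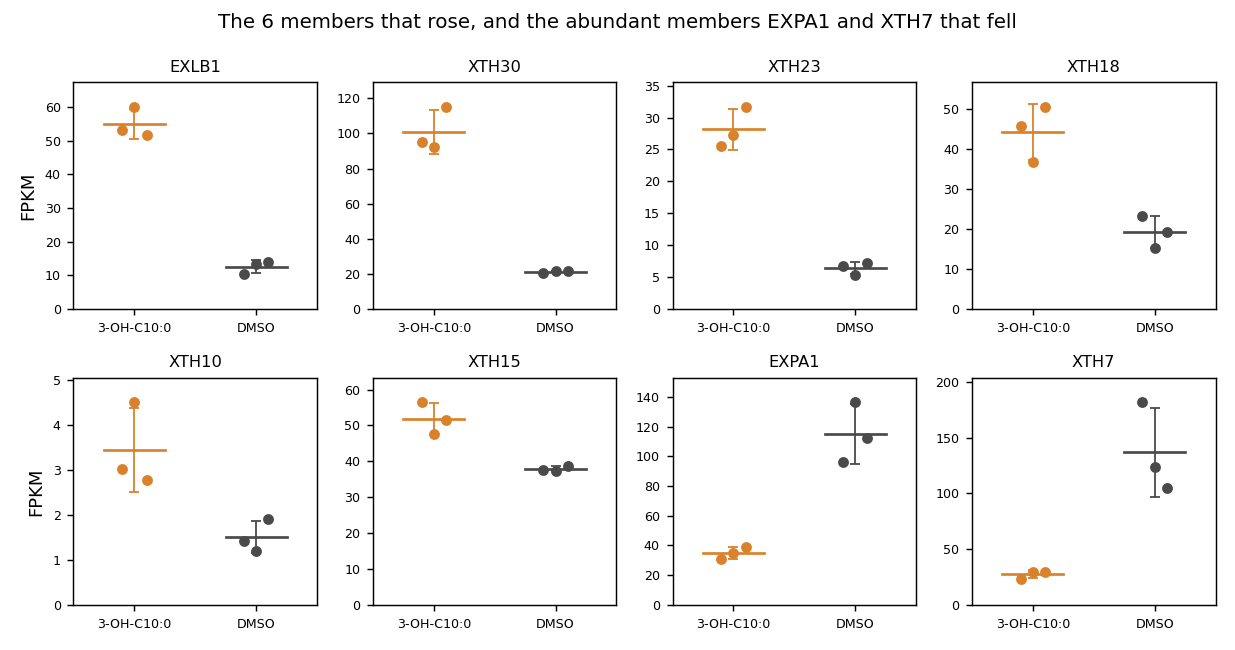
FPKM of the 6 members that rose and of EXPA1 and XTH7, abundant members that fell, in each library (points), with group means (horizontal lines) and SD (bars), 3-OH-C10:0 left of DMSO and each axis starting at 0. The points of the groups do not overlap in any panel, and the gap is narrowest for XTH10 and XTH15.

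XTHs are commonly divided into groups by sequence. In group 1, here XTH4 to XTH10, 6 of 7 members (85.7%) fell and XTH10 rose, where 35.8% of all tested genes fell and 35.6% rose. XTH4, an endotransglucosylase known from stems and secondary walls, was the most abundant XTH after XTH24. It had 154, 150.2 and 204 FPKM in treated seedlings and 404, 366 and 388 FPKM in DMSO seedlings, with a log2 fold change of -1.10 ± 0.128 (adjusted p = 1.9e-05). Its highest treated library was still far under its lowest DMSO library.

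XTH7 had 23.4, 29.4 and 29.5 FPKM in treated seedlings and 182, 124 and 105 FPKM in DMSO seedlings. The log2 fold change of XTH7 was the lowest of group 1 at -2.23 ± 0.210 (adjusted p = 4.2e-05), and -1.99 without DMSO replicate 1. XTH9, known from shoot apices and vascular tissue, had 62.2, 64.4 and 53.2 FPKM in treated seedlings and 154, 119.8 and 116 FPKM in DMSO seedlings (log2 fold change -1.03 ± 0.116). XTH7 and XTH9 were thus both separated cleanly by treatment, XTH7 more widely. XTH5, XTH6 and XTH8 had lower levels, at most 10.3 FPKM in any treated library, and log2 fold changes between -1.51 and -1.33.

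XTH10 (AT2G14620, chr2:6244772-6246279, plus strand) was the low-level exception. It had 3.03, 4.50 and 2.78 FPKM in treated seedlings and 1.42, 1.20 and 1.91 FPKM in DMSO seedlings, and the groups did not overlap. Its log2 fold change was 1.25 ± 0.246 (adjusted p = 0.00091).

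Group 2, here XTH12 to XTH26 with 15 members, was the most mixed: 9 fell, 3 rose and 3 did not pass. Its summed level was 1089 ± 22.3 FPKM in treated seedlings and 1030 ± 42.5 FPKM in DMSO seedlings (SD, n = 3 each). XTH24 (AT4G30270, MERI5, chr4:14819192-14820595, minus strand) held most of it, with 828, 879.9 and 779 FPKM in treated seedlings and 806, 783 and 759.9 FPKM in DMSO seedlings. The groups overlapped in FPKM, and the log2 fold change of 0.17 ± 0.105 did not pass (adjusted p = 0.18). In CPM the treated libraries of XTH24 were all higher, and it passed narrowly with DESeq2 (adjusted p = 0.0488) and without treated replicate 3 (adjusted p = 0.0473).

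XTH22 (AT5G57560), known as the touch-induced gene TCH4, had 88.7, 83.1 and 119 FPKM in treated seedlings and 107, 82.5 and 87.0 FPKM in DMSO seedlings. Its libraries were interleaved, with a log2 fold change of 0.16 ± 0.151 (adjusted p = 0.367). XTH25, beside it on chromosome 5 with 565 bases between the genes, had 0.510, 0.520 and 0.900 FPKM in treated seedlings and 1.07, 0.810 and 0.730 FPKM in DMSO seedlings (log2 fold change -0.30 ± 0.347, adjusted p = 0.461). XTH22 was thus abundant and XTH25 scarce in both groups.

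XTH15, known from shade-grown petioles, and XTH16 moved apart. XTH15 (AT4G14130, chr4:8137020-8138392, minus strand) had 56.4, 47.5 and 51.5 FPKM in treated seedlings and 37.5, 37.3 and 38.8 FPKM in DMSO seedlings. This was the smallest called rise, with a log2 fold change of 0.54 ± 0.087 (adjusted p = 0.00023) and no overlap. XTH16 had 21.9, 20.6 and 16.6 FPKM in treated seedlings and 42.9, 35.2 and 30.5 FPKM in DMSO seedlings, a log2 fold change of -0.80 ± 0.139. The ratio of XTH15 to XTH16 in FPKM was accordingly between 2.31 and 3.10 in treated libraries and between 0.875 and 1.27 in DMSO libraries.

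XTH17, XTH18, XTH19 and XTH20 are close paralogs known from roots, with coding identities between 79.6% and 87.6% over their 6 pairs. XTH18 alone rose among them. XTH18 (AT4G30280, chr4:14825757-14827211, minus strand, 3 exons) had 45.6, 36.6 and 50.5 FPKM in treated seedlings and 23.2, 15.1 and 19.3 FPKM in DMSO seedlings (log2 fold change 1.29 ± 0.167, adjusted p = 0.00015). XTH19 (AT4G30290, chr4:14828712-14830224, minus strand, 3 exons), its direct neighbour 1500 bases away, had 0.390, 0.740 and 0.290 FPKM in treated seedlings and 2.75, 1.27 and 1.24 FPKM in DMSO seedlings (log2 fold change -1.84 ± 0.435, adjusted p = 0.00314). The neighbours thus moved in opposite directions. The FPKM ratio of XTH18 to XTH19 was between 49.5 and 174 in treated libraries and between 8.43 and 15.6 in DMSO libraries. In the treated libraries that ratio rested on 9, 15 and 9 counts of XTH19.

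XTH17 on chromosome 1 had 0.610, 1.06 and 0.880 FPKM in treated seedlings and 9.88, 3.09 and 4.99 FPKM in DMSO seedlings (log2 fold change -2.72 ± 0.467, adjusted p = 0.00104). XTH20 on chromosome 5 had 0.390, 0.490 and 0.260 FPKM in treated seedlings and 5.15, 1.15 and 1.93 FPKM in DMSO seedlings (log2 fold change -2.77 ± 0.629, adjusted p = 0.00454). In both genes DMSO replicate 1 was the highest library by far, but the lowest DMSO library was still above every treated one. Without that library the log2 fold change of XTH17 was -2.17, that of XTH19 was -1.38 and that of XTH20 was -1.96. XTH17 shares identical exonic stretches of 47 bases with XTH18, 51 with XTH19 and 44 with XTH20. Its 58 counts over the treated libraries are therefore uncertain beside the 3101 of XTH18.

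Paralogs this close can share reads. The longest exonic stretch that XTH18 and XTH19 have in common, entirely coding, was 68 bases, the longest of all 678 pairs compared within the families. It is shown because a fragment inside it could come from either gene. The reference sequence is RefSeq TAIR10.1, given 5′ to 3′ on the minus strand, at chr4:14826483-14826550 for XTH18 and chr4:14829475-14829542 for XTH19.
XTH18 and XTH19: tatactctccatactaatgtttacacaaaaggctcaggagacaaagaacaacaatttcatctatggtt

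Elsewhere the pair can be told apart. In the 150 coding bases where they differed most, 28 bases were unlike, and these are in capitals in the sequences of XTH18 (chr4:14826798-14826947, minus strand) and XTH19 (chr4:14829780-14829929, minus strand).
XTH18: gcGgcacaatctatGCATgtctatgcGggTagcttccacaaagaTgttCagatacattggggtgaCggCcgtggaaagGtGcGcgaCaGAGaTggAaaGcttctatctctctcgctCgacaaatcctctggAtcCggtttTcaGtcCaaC
XTH19: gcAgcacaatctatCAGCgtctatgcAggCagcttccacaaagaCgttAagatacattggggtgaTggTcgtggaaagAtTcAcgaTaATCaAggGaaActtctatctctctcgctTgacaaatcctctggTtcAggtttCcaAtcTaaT
The labels do not state how counting divided fragments that match both genes. The low counts of XTH19, 33 over the treated libraries and 119 over the DMSO libraries, are uncertain to that extent beside the much higher counts of XTH18.

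The 250 bases before each of the 2 gene starts are shown because these neighbours moved in opposite directions. Capitals mark a W-box (TTGACC or TTGACT on either strand), the motif read by WRKY factors. XTH18 held 1 W-box, written here as AGTCAA, its reverse complement, and XTH19 held none. The windows are chr4:14827212-14827461 for XTH18 and chr4:14830225-14830474 for XTH19, both on the minus strand of RefSeq TAIR10.1.
XTH18: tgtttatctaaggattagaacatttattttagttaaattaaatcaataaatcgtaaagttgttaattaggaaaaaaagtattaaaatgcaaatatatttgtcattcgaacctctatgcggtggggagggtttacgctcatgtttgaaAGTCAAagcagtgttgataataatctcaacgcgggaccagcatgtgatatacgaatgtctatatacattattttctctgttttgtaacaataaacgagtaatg
XTH19: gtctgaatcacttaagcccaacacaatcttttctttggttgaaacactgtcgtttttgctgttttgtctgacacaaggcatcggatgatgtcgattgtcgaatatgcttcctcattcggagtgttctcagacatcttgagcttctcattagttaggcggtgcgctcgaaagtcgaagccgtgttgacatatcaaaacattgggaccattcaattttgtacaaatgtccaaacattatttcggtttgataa

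Over the 250 bases before each gene start, a W-box was present in 1 of the 6 members that rose (XTH18) and in 7 of the 36 that fell, and in 28.4% of 27443 such windows. The brassinosteroid-related letters CGTGTG or CGTGCG were present in 1 of the 6 that rose (XTH23) and in 5 of the 36 that fell, EXPA1 and EXPA6 among them, and in 6.7% of all windows. The auxin-related letters TGTCTC were present in 0 of the 6 and 4 of the 36 (10.9% of all windows), and TGACG in 1 of the 6 and 5 of the 36 (18.6%). CACGTG, the G-box, was present in 0 of the 6 and 0 of the 36 (6.5%). Both strands were searched for every motif. The G-box and CGTGTG can overlap on the letters CGTG, and a match describes letters, not a site.

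XTH23 and XTH14 form another pair of neighbours on chromosome 4, with 363 bases between them and 65.3% coding identity, and they too moved apart. XTH23 (AT4G25810, chr4:13128394-13129927, plus strand) had 25.5, 27.2 and 31.7 FPKM in treated seedlings and 6.82, 5.37 and 7.20 FPKM in DMSO seedlings. Every treated library was over 3 times every DMSO library, and the log2 fold change was 2.21 ± 0.129 (adjusted p = 1e-07). XTH14 (AT4G25820), which is known from roots and root hairs, had 16.6, 11.9 and 13.4 FPKM in treated seedlings and 19.8, 31.0 and 25.8 FPKM in DMSO seedlings (log2 fold change -0.79 ± 0.192, adjusted p = 0.0062). XTH23 was therefore above XTH14 in each treated library, with ratios between 1.53 and 2.37, and below it in each DMSO library, with ratios between 0.173 and 0.345. The neighbour pairs were picked after their values were known and carry no test of their own.

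**Figure D4:**
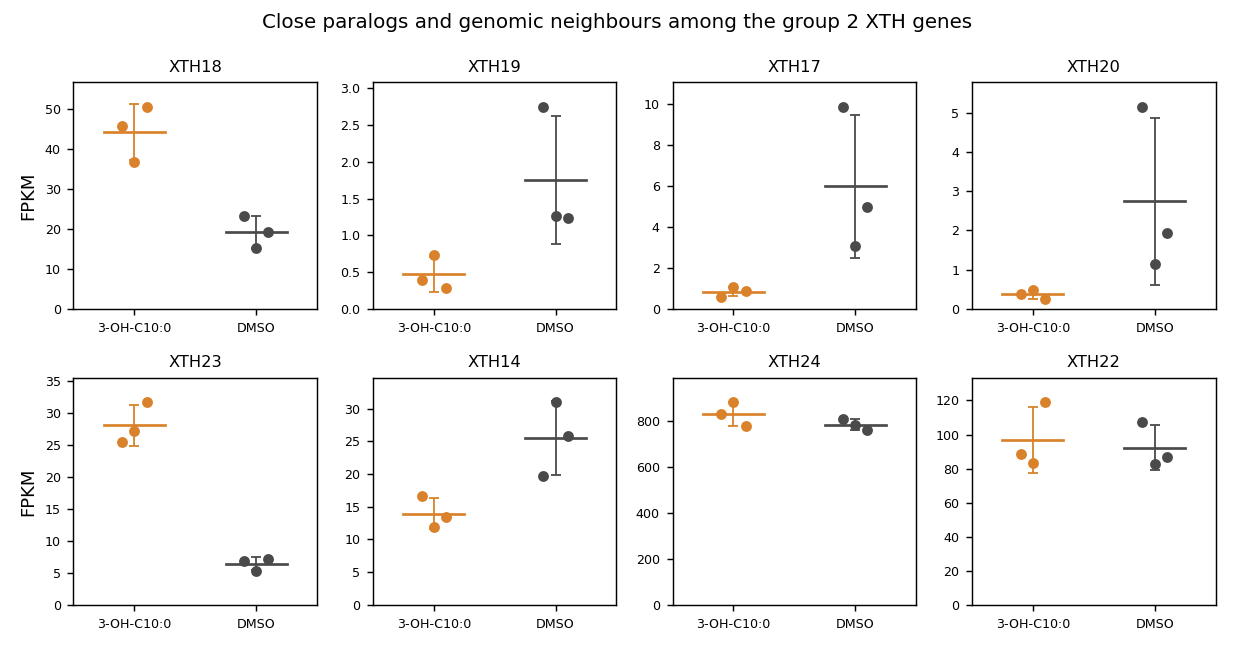
FPKM of 8 XTH genes of group 2 in each library (points), with group means (horizontal lines) and SD (bars), 3-OH-C10:0 left of DMSO and each axis starting at 0. XTH18 is higher in treated libraries while its paralogs XTH19, XTH17 and XTH20 are lower, XTH23 and its neighbour XTH14 move apart, and XTH24 and XTH22 overlap between groups.

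XTH12 and XTH13, with 89.4% coding identity, lie with XTH25 and XTH22 on chromosome 5 and fell together. XTH12 had 1.71, 0.940 and 1.80 FPKM in treated seedlings and 4.81, 8.34 and 8.05 FPKM in DMSO seedlings (log2 fold change -2.14 ± 0.289). XTH13 had 0.520, 0.450 and 0.430 FPKM in treated seedlings and 2.65, 3.56 and 3.82 FPKM in DMSO seedlings (log2 fold change -2.75 ± 0.287). The groups were well apart in both, and the 47 bases of exon they share leave some reads that either could have given. XTH13 had 9, 7 and 10 counts in the treated libraries and passed the filter only through its DMSO libraries. Its fall was therefore largely set by passing. XTH26, the XTH of root hairs, had 1.84, 0.810 and 0.810 FPKM in treated seedlings and 5.74, 6.86 and 6.66 FPKM in DMSO seedlings (log2 fold change -2.41 ± 0.282, adjusted p = 2.5e-05). XTH21, which affects root growth, had 0, 0.170 and 0.310 FPKM in treated seedlings and 2.00, 0.6 and 0.810 FPKM in DMSO seedlings (log2 fold change -2.57 ± 0.732, adjusted p = 0.0109). XTH21 rested on 11 counts over the treated libraries and 65 counts over the DMSO libraries, and it too passed the filter only through its DMSO libraries. For XTH21, leaving out DMSO replicate 1 gave -1.91 and leaving out treated replicate 3 gave -3.59 on the log2 scale.

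Group 3, here XTH27, XTH28 and XTH30 to XTH33, holds both endotransglucosylases and the branch with hydrolase activity. XTH31 and XTH32 belong to that branch, and both fell. XTH31 had 5.40, 4.35 and 3.97 FPKM in treated seedlings and 41.8, 26.1 and 21.6 FPKM in DMSO seedlings (log2 fold change -2.62 ± 0.276, adjusted p = 0.00011). Without DMSO replicate 1, its highest library, the log2 fold change was -2.32. XTH32 had 4.36, 4.74 and 4.01 FPKM in treated seedlings and 17.7, 15.8 and 15.0 FPKM in DMSO seedlings (log2 fold change -1.77 ± 0.127, adjusted p = 4.8e-07). No treated library of either gene came near its DMSO range.

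XTH30 (AT1G32170, chr1:11575320-11578030, plus strand, 4 exons) had the highest log2 fold change of any tested member. It had 94.95, 92.2 and 115 FPKM in treated seedlings and 20.8, 21.7 and 21.6 FPKM in DMSO seedlings. The DMSO libraries were nearly equal and all treated libraries were more than 4 times as high, with a log2 fold change of 2.32 ± 0.106 (adjusted p = 1.5e-08). Its rank by mean FPKM among the 28 XTHs was 3 in treated seedlings and 13 in DMSO seedlings. The FPKM ratio of XTH30 to XTH31 was between 17.6 and 29.0 in treated libraries and between 0.497 and 0.999 in DMSO libraries.

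XTH27, known from tracheary elements, had 51.4, 53.4 and 65.6 FPKM in treated seedlings and 98.4, 113 and 105 FPKM in DMSO seedlings (log2 fold change -0.81 ± 0.111, adjusted p = 7e-05). XTH28, at a similar level, had 51.3, 52.6 and 45.6 FPKM in treated seedlings and 58.5, 49.7 and 55.1 FPKM in DMSO seedlings. XTH28 overlapped between groups and its log2 fold change was -0.04 ± 0.085 (adjusted p = 0.655), while XTH27 was lower in every treated library. XTH33, which is anchored in the plasma membrane, had low levels and a log2 fold change of -0.77 ± 0.274 (adjusted p = 0.0261). Its call was lost with DESeq2 (adjusted p = 0.0785) and without treated replicate 2 (adjusted p = 0.077), treated replicate 3 (adjusted p = 0.0631) or DMSO replicate 3 (adjusted p = 0.105).

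Markers of several cell types were lower as well, though not every marker fell. Among all tested genes, 35.8% fell and 35.6% rose. All 5 tested xylem and secondary wall markers fell, and their summed level was between 17.7 and 22.3 FPKM in treated libraries and between 36.7 and 55.2 FPKM in DMSO libraries, highest in DMSO replicate 1. XCP1, XCP2, IRX3 and IRX5 had log2 fold changes between -1.55 and -0.98, and VND7 was too low to test. Of the 10 root hair markers 6 fell and none rose, with sums between 25.8 and 30.6 FPKM in treated libraries and between 50.0 and 51.6 FPKM in DMSO libraries, and PRP3, ADF8, RHS12 and COBL9 lay between -1.08 and -0.77 on the log2 scale. The root hair regulators RHD6 and RSL4 did not pass, with log2 fold changes of 0.20 and 0.15. Of the 8 root tissue markers 5 fell, among them PYK10 (-0.88), NRT2.1 (-1.51), CASP1 (-0.54) and PLT1 (-0.71), and 2 rose, PHO1 and SCR. Both rises were lost with total-count scaling, with limma on FPKM, without treated replicate 1 and without DMSO replicate 1, and that of SCR also without treated replicate 2. The fall of PLT2 (-0.68) was lost with DESeq2 and without treated replicate 1, treated replicate 2 or DMSO replicate 3. SHR (-0.24) had no call, but fell with total-count scaling, with limma on FPKM and without DMSO replicate 3. The sum of the 8 was between 426 and 580 FPKM in treated libraries and between 803 and 880 FPKM in DMSO libraries, but PYK10 carried that difference. Without PYK10 the sum was between 101 and 117 FPKM in treated libraries and between 105 and 112 FPKM in DMSO libraries.

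Of the 6 leaf markers 4 fell, RCA, PSBO1, RBCS1A and GAPA1, with log2 fold changes between -2.23 and -1.3. The leaf marker sum was between 8472 and 11530 FPKM in treated libraries and between 30578 and 32046 FPKM in DMSO libraries. Of the 6 guard cell markers 3 fell, MYB60 (-1.53), SLAC1 (-0.83) and GORK (-0.49), and OST1 rose by 0.33, with sums between 24.4 and 25.9 FPKM in treated libraries and between 30.0 and 34.5 FPKM in DMSO libraries. The rise of OST1 was lost with total-count scaling, with limma on FPKM and without treated replicate 1, treated replicate 2 or DMSO replicate 2. The fall of GORK was lost with DESeq2 and without treated replicate 2 or DMSO replicate 1, and that of SLAC1 without treated replicate 1 or DMSO replicate 1. The part of these marker changes in the falls of members expressed in the same tissues was not tested.

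Other enzymes of the same polymer were counted beside the members. All 3 exoglycosidases that trim xyloglucan in the wall fell, where 35.8% of all tested genes fell. They were the xylosidase XYL1 (log2 fold change -1.01 ± 0.0863), the galactosidase BGAL10 (-1.81 ± 0.171) and the fucosidase AXY8 (-0.91 ± 0.0932). Their summed level was between 55.7 and 56.9 FPKM in treated libraries and between 139 and 146 FPKM in DMSO libraries. Of the 14 genes that build xyloglucan in the Golgi, 3 rose (21.4%) and 3 fell (21.4%), with a median log2 fold change of -0.11. Both shares were below those of all tested genes, of which 35.6% rose and 35.8% fell. Without DMSO replicate 1, 5 of the 14 rose and 2 fell. The glucan synthase gene CSLC4 rose by 0.55 and the xylosyltransferase gene XXT1 by 0.74 on the log2 scale, while CSLC5 and CSLC8 fell by 0.55 and 0.84.

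AHA2, a proton pump that acidifies the wall space, rose. It had 868, 866 and 600.2 FPKM in treated seedlings and 177, 174 and 158 FPKM in DMSO seedlings (log2 fold change 2.28 ± 0.161, adjusted p = 4.2e-07). Every treated library of AHA2 was over 3 times every DMSO library, opposite to most expansins. AHA1, the other main pump gene, had a log2 fold change of 0.04 ± 0.106 (adjusted p = 0.746). The phosphatase genes AT5G02760, AT3G17090 and AT4G38520, whose class holds the pump inactive, did not pass either. With the replicate block AT5G02760 did pass (log2 fold change 0.35, adjusted p = 0.00828). The 6 small auxin-up RNA genes SAUR19 to SAUR24 were too low to test.

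Of 12 tested transcription factors of growth, 6 fell (50.0%) and 1 rose (8.33%), where 35.8% of all tested genes fell and 35.6% rose. One of these falls, that of HBI1 (-0.52), was lost without treated replicate 1, treated replicate 3, DMSO replicate 2 or DMSO replicate 3. The phytochrome-interacting factor PIF4 had a log2 fold change of -1.69 ± 0.204, the brassinosteroid factor BES1 -1.21 ± 0.123 and BEE2 -1.13 ± 0.130. The auxin response factor ARF7 rose by 0.88 ± 0.0777. Of the 6 receptors that watch the wall, 4 rose and 2 fell, where 71.4% of all tested genes changed. The wall-associated kinase WAK1 had 10.3, 11.8 and 11.1 FPKM in treated seedlings and 1.02, 0.610 and 0.500 FPKM in DMSO seedlings (log2 fold change 4.05 ± 0.188), and WAK2, HERK1 and FER rose by 0.97, 0.82 and 0.39 on the log2 scale. THE1 and HERK2 both fell by 0.62.

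A further 17 loci of these families were not on the list of members, and they were looked up after the members' values had been seen. Of these, 13 did not pass the filter, with at most 17 counts over the 6 libraries. The 4 that passed, XTH2, XTH11, XTH29 and PNP-A (an expansin-like B gene), all rose, where 35.6% of all tested genes rose. XTH2, XTH29 and PNP-A had at most 6 counts in any DMSO library, so they passed the filter only through their treated libraries. For these a rise was therefore largely set by passing. XTH29 had 2.58, 2.86 and 2.27 FPKM in treated seedlings and 0.140, 0.0400 and 0.0400 FPKM in DMSO seedlings (log2 fold change 5.09 ± 0.398), on 183 counts over the treated libraries and 5 counts over the DMSO libraries. XTH2 had no count in any DMSO library and 26, 20 and 47 counts in the treated libraries, at least 28.9-fold higher against a floor of 3 counts over the DMSO group.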

How the data were processed

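Library preparation was for HiSeq2500 sequencing of TRIzol-extracted total RNA, per the labels' protocols, and the sources used here do not state strandedness or read length. Reads were handled with HISAT2 2.2.4, Bowtie2 2.2.8, RSEM, StringTie 1.3.1 and fastp 0.18.0 on build TAIR10, per the submitters' processing notes, with no role or order stated. Estimated counts per locus were made and deposited by the authors without normalisation, per the file headers; 3.62% of values were not whole, so all were rounded to whole numbers. The FPKM values are the authors' own and were taken unchanged.

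Genes were filtered with filterByExpr (minimum count 10), scaled by TMM and tested with the robust, two-sided quasi-likelihood F test of edgeR 4.0.16 (R 4.3.3), treated over DMSO, with Benjamini-Hochberg adjustment over 19768 genes and a threshold of 0.05. Alternatives were total-count scaling, no filter, DESeq2 1.42.0, limma 3.58.1 on log2(FPKM + 0.1), filtered or not, and on log2(FPKM + 1), a replicate block and leaving out each library. Scripts were tested on simulated data with a far smaller share of changed genes, so that test does not cover a shift as broad as this one. Within a group, libraries correlated at 0.986 to 0.991 and differed beyond sampling noise (chi-square per gene 4.72 to 23.1).

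The members and gene lists were chosen with earlier results of these data known, so counts over them are descriptions. Values per library are given for called members without overlap and averaging 20 counts or more in the group where they are higher, up to the 14 highest and 14 lowest fold changes, for members against their family, for the 5 most abundant expansins and XTHs, and for members without a call; of each list up to 4 members with the smallest p are named. Genes beyond this were named after their values were seen. Positions and sequences are those of RefSeq TAIR10.1 by locus code, since the files carry no coordinates. A floor of 3 counts covers counting error only.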

Additional observations from a re-analysis of the deposited data

How the results depend on the processing

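The counts of members that rose and fell were 6 and 36 in the fit as reported, with total-count scaling, without the filter on low counts and with the replicate block, 7 and 35 with DESeq2, and 6 and 37 with limma on FPKM at either pseudocount. Leaving out each library in turn gave between 40 and 42 called members. Of the 42 called members, 38 kept their call and direction under all 13 alternatives. EXPA4, EXPA18, EXPA20 and XTH33 lost it under at least 1 alternative, EXPA16, EXLA2 and XTH24 gained a call under at least 1, and no called member changed sign; the values stand beside each gene. Over all genes, 7036 rose and 7084 fell; total-count scaling gave 6410 and 7732, limma on log2(FPKM + 0.1) 6411 and 7743. Among the lists, the proton pump list had 1 called gene of 5 tested. Without the filter 11 of its genes were tested, and 2 were called, or 4 with limma on log2(FPKM + 0.1). With the replicate block 2 were called, the phosphatase gene AT5G02760 being the one added. Leaving out a library in turn gave between 4 and 7 called root tissue markers (7 with all libraries; 4 without treated replicate 1) and between 2 and 4 called guard cell markers (4 with all libraries; 2 without treated replicate 1, treated replicate 2 or DMSO replicate 1). The same-numbered libraries showed no clear pairing: their deviations correlated at 0.0264, -0.0159 and 0.0994, the last being the highest of any pair. Libraries of unlike number correlated at -0.102 to 0.0645. Fold changes of EXPA5, EXPB3, XTH20 and XTH21 moved by over 1.5 times without DMSO replicate 1. Low depth limits EXPA2, EXPA12, EXPA17 and XTH21, and log2(FPKM + 1) by construction shrinks the folds of low genes, by over 1.5 times in EXPA5, EXPB1, EXPB3, XTH13, XTH17, XTH19, XTH20, XTH21 (-0.83) and XTH26.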

Other observations

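PNP-A, an expansin-like B gene outside the list of members and a known secreted peptide of water and salt balance, had 5.98, 9.10 and 3.93 FPKM in treated seedlings and 0.200, 0.370 and 0.250 FPKM in DMSO seedlings (edgeR log2 fold change 4.56 ± 0.420, SE, adjusted p under Benjamini-Hochberg 4e-06). PNP-A had 3, 6 and 4 counts in the DMSO libraries and could be tested only through its treated libraries, so its rise was largely set by passing the filter. EXLB1, the other expansin-like B gene that could be tested, rose too, at a far higher level, where 35.6% of all tested genes rose. XTH11, also outside the list, had 4.40, 5.33 and 4.11 FPKM in treated seedlings and 0.500, 0.870 and 0.510 FPKM in DMSO seedlings (log2 fold change 2.94 ± 0.260). All 3 treated libraries lay above all 3 DMSO libraries in both genes, which were looked up after the members' values had been seen.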
